A study of Mus musculus with 14 samples.

Results

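Arsg, Tmem144, Prrg1, Efhd1 and Pls1 are 5 mouse genes picked because their fitted level was lower in libraries labelled Qk-KO than in libraries labelled WT, both in corpus callosum and in oligodendrocyte cultures. They are 5 of the 46983 genes listed in each table. Of the 16601 genes with an adjusted p in both tables, 4139 (24.9%) lay below WT in both, so the direction alone is common. All 5 genes carry an adjusted p in both tables and none was lost to a filter on low counts. The genes were chosen by their log2 changes between labelled Qk-KO and WT, so those changes are given below as a description without a test.

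The corpus callosum came from FvB/C57BL6 hybrid mice injected with tamoxifen at 8 weeks of age and was taken 4 days later. The 4 libraries labelled Qk-KO came from Plp-CreERT2;QKLoxP/LoxP mice. The 4 labelled WT came from Plp-CreERT2;QKLoxP/+ mice, so the controls also carry the Cre transgene, received tamoxifen and have 1 floxed Qk copy. The promoter of the transgene restricts this recombinase mainly to the oligodendrocyte lineage, while the RNA came from the whole tissue. The cultures were neural stem cells of the same mixed background, at passages 7, 12 and 13, differentiated in Neurobasal medium with B-27, 2 mM GlutaMAX-I, insulin-like growth factor (100 ng/ml) and the thyroid hormone T3 (50 ng/ml). There were 3 libraries labelled Qk-KO, whose descriptions carry 40HT, and 3 labelled WT, whose descriptions carry EtOH, so that treatment and genotype cannot be told apart in culture. Each passage gave 1 library of either genotype, and the deposited fit has no passage term, so the culture errors and calls below do not use this pairing. The labels of the cultures state no allele beyond the genotype.

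Qk encodes quaking, an RNA-binding protein of glia that controls splicing, stability and transport of mRNAs and is needed for myelin. It recognises a short sequence with the core ACUAAC or ACUAAU, often with a shorter UAAC or UAAU element nearby. The 5 genes do not form a known pathway. Arsg encodes arylsulfatase G, a lysosomal enzyme that removes sulfate from heparan sulfate. Tmem144 encodes a multi-pass membrane protein that sequence annotation places among carbohydrate transporters. Prrg1 encodes a transmembrane protein with an extracellular Gla domain, which is modified by vitamin K-dependent carboxylation. Efhd1 encodes a calcium-binding EF-hand protein of mitochondria, and Pls1 encodes plastin 1, a protein that bundles actin filaments in microvilli and in the stereocilia of the ear.

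The deposited columns for single libraries hold a model's fitted mean, so libraries of 1 genotype differ only by a size factor and carry no spread between animals or cultures. Errors are therefore the standard errors (SE) of the authors' deposited table. Fitted totals ran from 15048646 to 27666519 counts per callosum library and from 38325833 to 48912999 per culture library. Mbp, which marks oligodendrocytes, had mean normalized counts of 62698 in callosum and 21484 in culture in the authors' deposited table. The astrocyte gene Gfap had 12193 and 101971 in the authors' deposited table; levels are not compared across the tables, which were normalized separately. Qk itself was not lower, with log2 changes of 0.32 ± 0.12 (SE) in callosum, adjusted p = 0.162, and 0.66 ± 0.14 in culture, adjusted p = 4.19e-05, in the authors' deposited table. A count over the whole gene does not show whether a deleted part is missing, so it does not check the labels.

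The transcripts of all 5 genes hold the quaking core at least once, and Prrg1 holds it most often. The longest coding transcript of each gene in GENCODE M21 (GRCm38) was searched on its own strand for ACTAAC and ACTAAT. The search returned 11 cores. Of these, 10 lie in a 3′ UTR, 1 in a 5′ UTR (Arsg) and 0 in coding sequence. They are shown because quaking is the targeted protein, each as 30 bases 5′ to 3′ with the core in capitals, named by the base of the transcript at which the core starts.

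Arsg base 717: cctgtagccattACTAACtccagtgtattc
Tmem144 base 2182: tttgactgcacaACTAATtttttcctcctt
Prrg1 base 937: catttctaaaatACTAATggaaaactttct
Prrg1 base 1195: aatttgtgtacaACTAACttctaccacatc
Prrg1 base 1690: taatttttttccACTAATttttttctcatt
Prrg1 base 2569: tgtgtgtgttacACTAATattagccattag
Prrg1 base 3197: attaatagctgtACTAACcataaattttat
Prrg1 base 3708: cttttcctattgACTAATaaaaaagggagc
Efhd1 base 847: cggctgtgccttACTAACaccctggaggtg
Pls1 base 2330: aaccaaaataagACTAATcattctttttca
Pls1 base 2604: tttaatacgagaACTAACtcttgaataacc

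Prrg1 has 6 cores in a 3′ UTR of 3074 bases, and 4 of them have a TAAC or TAAT element within 20 bases that does not overlap the core. The Prrg1 windows lie between chrX:78449852-78449881 and chrX:78452623-78452652 on the minus strand. Among the 3567 other tested genes with a transcript length within 20%, 0.224% had as many cores, and the median was 1. Among 1671 genes with a 3′ UTR of like length, 0.18% had as many. The Prrg1 3′ UTR is 70.4% A and T. Among the 28 genes alike in both length and base composition (within 3 percentage points), 3.57% had as many, and the median was 2. With only 28 genes this share is coarse. Of the transcripts of like length, 52.3% held at least 1 core and 19.4% at least 1 core with such an element nearby. These 2 shares are not matched for base composition, and the share with as many as 4 such cores is not given here.

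Pls1 has 2 cores in its 3′ UTR, at chr9:95753999-95754028 and chr9:95753725-95753754 on the minus strand, and both have a shorter element nearby. As many or more cores occurred in 19.7% of transcripts of like length, and 17.5% of these held at least 1 core with a shorter element nearby. Among the 389 genes alike in 3′ UTR length and base composition, 21.6% had as many cores, and the median was 1. Arsg (chr11:109490274-109490303, plus strand), Tmem144 (chr3:79813263-79813292, minus strand) and Efhd1 (chr1:87309820-87309849, plus strand) have 1 core each, without a shorter element nearby. At least 1 core occurred in 45.1%, 41.3% and 27.4% of transcripts of like length. A match of letters is not a binding site, and quaking binding was not measured here.

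**Figure D1:**
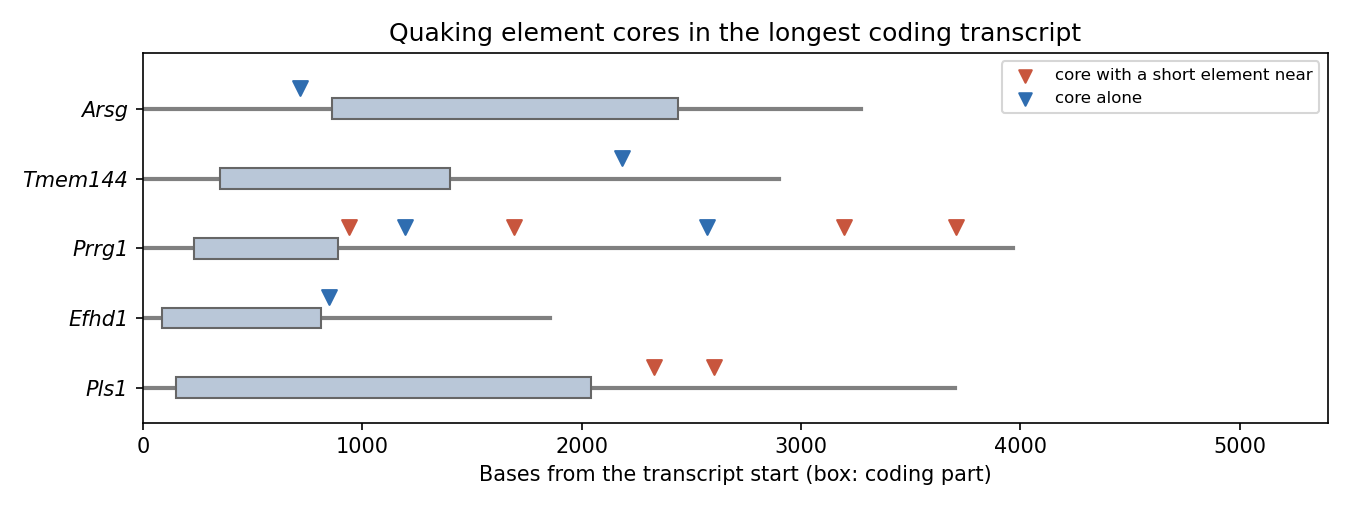
The longest coding transcript of each gene drawn to scale, with bases from the transcript start on the x axis, the coding part as a box and each quaking core as a triangle. Prrg1 carries 6 of the 11 cores, 4 of them with a TAAC or TAAT element within 20 bases (red).

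RefSeq lists 10 windows for the 5 genes (GRCm38.p6, 250 bases before to 50 after a start site), and 5 motifs were searched on both strands. The quaking core ACTAAC or ACTAAT and the TATA motif TATAAA were in 0 of the 10, against 11.6% and 13.6% of all 32851 windows. ACAAAG, a sequence bound by Sox proteins, was in 4, both windows of Arsg and 2 of the 4 of Tmem144, against 18.7% of all windows. AGGTCA, the hexamer of nuclear receptors, was in 2 windows of Tmem144, against 16.3%, and CCAAT in 1, also of Tmem144, against 37.4%. The windows of Prrg1, Efhd1 and Pls1 held none of the 5. Below are the most upstream windows listed for Arsg (chr11:109485642-109485941, plus strand) and Tmem144 (chr3:79852719-79853018, minus strand), shown because they are the genes with matches. Capitals mark ACAAAG or AGGTCA or their reverse complements.

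Arsg: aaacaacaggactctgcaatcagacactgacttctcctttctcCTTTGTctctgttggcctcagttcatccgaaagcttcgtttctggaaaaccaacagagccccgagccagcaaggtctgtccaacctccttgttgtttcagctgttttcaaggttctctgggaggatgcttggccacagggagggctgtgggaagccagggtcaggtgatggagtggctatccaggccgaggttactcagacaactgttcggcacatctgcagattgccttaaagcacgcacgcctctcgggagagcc
Tmem144: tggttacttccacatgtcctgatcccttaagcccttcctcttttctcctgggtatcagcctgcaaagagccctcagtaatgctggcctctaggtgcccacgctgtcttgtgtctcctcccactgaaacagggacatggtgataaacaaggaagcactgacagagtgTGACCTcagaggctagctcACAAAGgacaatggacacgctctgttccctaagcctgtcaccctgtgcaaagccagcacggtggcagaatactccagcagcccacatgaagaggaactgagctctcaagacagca

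Arsg (ENSMUSG00000020604.13, chromosome 11, 109473374 to 109573330, plus strand, GRCm38) had the most extreme score of all 19935 tested genes among those lower in callosum. Its fitted counts were 1211, 1360, 881 and 1066 in WT replicates 1 to 4 and 591, 519, 495 and 411 in Qk-KO replicates 1 to 4. Divided by size factors, this is a normalized level of 1003 in WT and 548 in Qk-KO, 54.7% of WT. The log2 change was -0.87 ± 0.10 (SE) in the authors' deposited table. In culture the fitted counts were 853, 669 and 728 in WT and 215, 198 and 184 in Qk-KO. The normalized level went from 781 to 188, 24% of WT, with a log2 change of -2.06 ± 0.19 (SE) in the authors' deposited table. Every Qk-KO fitted count lay below every WT one in both systems, but libraries of a genotype share 1 fitted level. The separation restates the fitted genotype difference, scaled by size factors, and does not show replicate agreement. The error of Arsg in callosum was small for its level: 17.8% of the 3076 genes within 1.5 times its mean count had a smaller SE, and the median of those genes was 0.12.

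Tmem144 (ENSMUSG00000027956.11, chromosome 3, 79812564 to 79852773, minus strand) had the widest gap between the systems. Its fitted counts in callosum were 342, 385, 249 and 302 in WT and 184, 161, 154 and 128 in Qk-KO. The normalized level was 284 in WT and 170 in Qk-KO, 60.1% of WT, a log2 change of -0.73 ± 0.16 (SE) in the authors' deposited table. In culture, fitted counts of 905, 709 and 772 in WT stood against 68.6, 63.2 and 58.8 in Qk-KO. This is a normalized level of 828 against 60, or 7.25% of WT, and a log2 change of -3.79 ± 0.34 (SE) in the authors' deposited table. Only 9 of the 17503 genes tested in culture had a more negative change. The SE of Tmem144 in culture was larger than that of 96.2% of genes of like mean.

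Prrg1 (ENSMUSG00000047996.16, chromosome X, 78449613 to 78583896, minus strand) was lower by about the same amount as Arsg in callosum. Fitted counts were 435, 489, 316 and 383 in WT and 205, 180, 172 and 143 in Qk-KO, a normalized level of 360 against 190. The log2 change was -0.92 ± 0.16 (SE), 52.8% of WT, in the authors' deposited table. In culture, fitted counts were 966, 757 and 824 in WT and 311, 287 and 267 in Qk-KO, a level of 884 against 272. The log2 change there was -1.70 ± 0.25 (SE), 30.8% of WT, in the authors' deposited table. Prrg1 is X-linked and the labels give no sex. Xist, the RNA that silences 1 X chromosome in females, had log2 changes of 0.27 ± 0.54 (adjusted p = 1.00) in callosum and 0.09 ± 0.69 (adjusted p = 0.946) in culture in the authors' deposited table. The part of sex in the Prrg1 values was not tested.

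Efhd1 (ENSMUSG00000026255.15, chromosome 1, 87264363 to 87310839, plus strand) differed least in both systems. Fitted counts were 545, 612, 396 and 480 in WT callosum and 320, 281, 268 and 222 in Qk-KO callosum, a level of 451 against 297. The log2 change was -0.61 ± 0.15 (SE), 65.7% of WT, in the authors' deposited table. The culture had fitted counts of 1411, 1105 and 1203 in WT and 689, 635 and 591 in Qk-KO, a level of 1291 against 603. The log2 change was -1.10 ± 0.22 (SE), 46.7% of WT, in the authors' deposited table.

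Pls1 (ENSMUSG00000049493.13, chromosome 9, 95752642 to 95845311, minus strand) had the most negative change of the 5 in callosum. Fitted counts were 567, 637, 413 and 500 in WT and 248, 218, 208 and 172 in Qk-KO, a level of 470 against 230. The log2 change was -1.03 ± 0.21 (SE), 48.9% of WT, in the authors' deposited table. In culture, where the gene was least abundant, counts were 197, 155 and 168 in WT and 73.3, 67.5 and 62.9 in Qk-KO, a level of 181 against 64.1. The log2 change was -1.49 ± 0.33 (SE), 35.5% of WT, in the authors' deposited table. In callosum its SE exceeded that of 87.6% of genes of like mean.

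**Figure D2:**
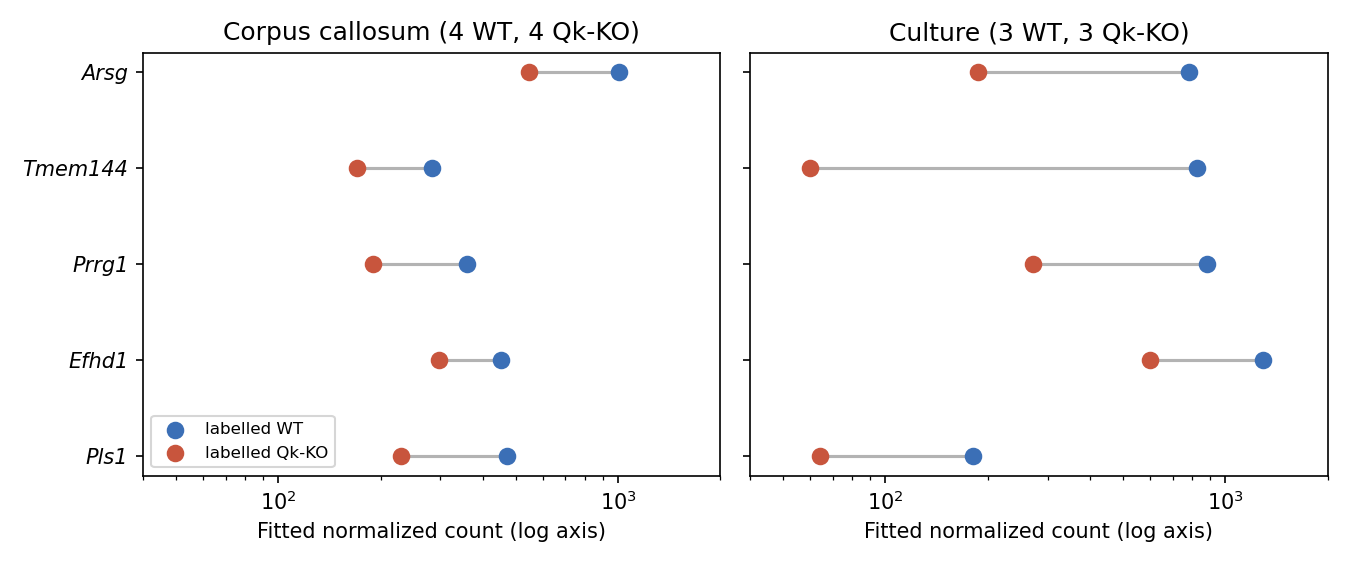
Fitted normalized counts (log axis) of the 5 genes in callosum (left) and culture (right), 1 point per genotype because the deposited columns hold 1 fitted level per genotype. Every Qk-KO point (red) lies left of its WT point (blue), and Tmem144 in culture, from 828 to 60, spans the widest gap.

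Set side by side, the changes were narrow in tissue and wide in culture, where the width came mainly from Tmem144. In callosum they ran from 1.52-fold lower (Efhd1) to 2.04-fold lower (Pls1), and in culture from 2.14-fold (Efhd1) to 13.8-fold (Tmem144). The next largest in culture was Arsg, at 4.16-fold. All 5 were lower by more in culture, and so by their estimates were the other 13 genes called lower in both tables. Among the 13, Rarres1 (-1.08 ± 0.32 and -1.09 ± 0.39) and Serpinb1a (-1.30 ± 0.18 and -1.33 ± 0.44) were nearly equal in the authors' deposited table. Calls were more common in culture at large, at 28.6% of tested genes against 2.32% in callosum. The share of all genes with a larger fall in culture is not given here. No test was made of these gaps, since the same changes chose the genes.

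**Figure D3:**
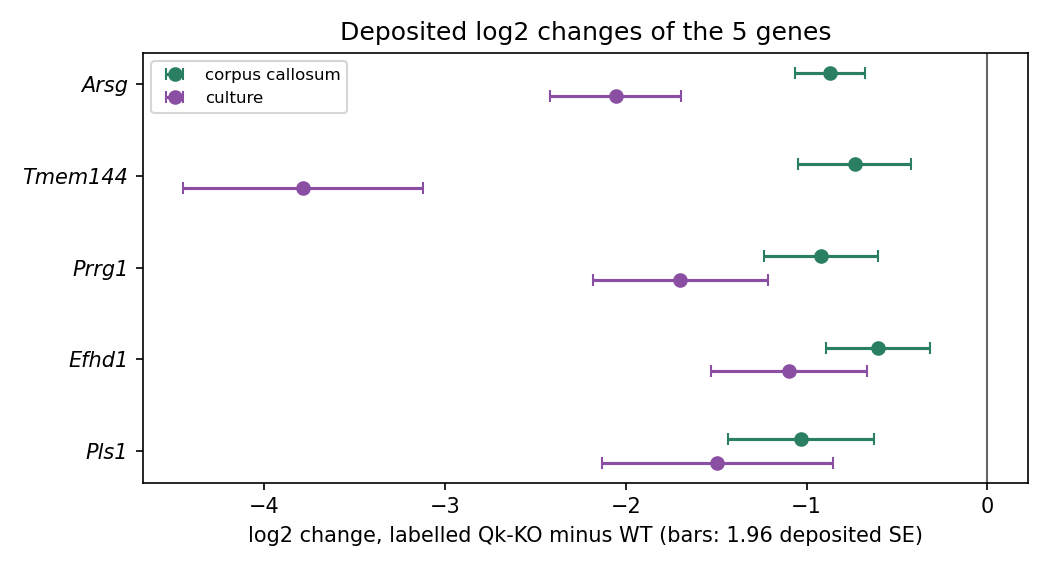
Log2 changes of the 5 genes (x axis, labelled Qk-KO minus WT) in callosum (green) and culture (purple), with bars for the 95% interval from the deposited SE. The callosum values lie between -1.03 and -0.61, and the culture values between -3.79 and -1.10.

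The genes also differ in abundance. Per kilobase of exon, in normalized counts, Arsg was highest in WT callosum (257), followed by Efhd1 (212), Pls1 (121), Tmem144 (81.4) and Prrg1 (31). In WT culture the order of levels was Efhd1 (607), Tmem144 (237), Arsg (200), Prrg1 (76.1) and Pls1 (46.4). These levels carry no error of their own, so whether neighbours in the order differ beyond their spread cannot be said. For Prrg1 the union of exons is 11614 bases, against 3964 in its longest coding transcript. The other genes differ less in these lengths, so the low place of Prrg1 depends on the length used. Arsg ranked at percentile 80.6 of tested genes per kilobase in WT callosum and at 67 in Qk-KO callosum. For Tmem144 in culture the percentile went from 64.3 to 21.4.

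All 5 passed an adjusted p under 0.05 for a lower level in both tables, which the choice of genes makes uninformative. The background for that call was 0.231% of tested genes in callosum, 15.2% in culture and 0.108% for both, 18 of 16601. Calls of a higher level were 2.09% in callosum and 13.3% in culture, and calls in either direction 2.32% and 28.6%. Without any threshold, 51.8% of tested genes lay below WT in callosum and 48.9% in culture. In culture the calls were 2667 lower and 2336 higher, and 2296 lower and 3054 higher when levels were scaled by library size. The 18 called lower in both are 39.1% of the 46 genes called lower in callosum and 0.675% of the 2667 called lower in culture. Only 34 of the 46 were tested in culture, and 2588 of the 2667 in callosum, so the rest could not be called in both. Ordered by the larger of the 2 adjusted p values, Arsg, Prrg1, Pls1 and Tmem144 hold ranks 1 to 4 and Efhd1 rank 6. Next to Efhd1 stands Scd2, a fatty acid desaturase, at rank 5 (-0.38 ± 0.09 and -1.62 ± 0.13 in callosum and culture in the authors' deposited table). On the other side is Tmem229a at rank 7 (-0.40 ± 0.10 and -1.96 ± 0.22 in the authors' deposited table). With a Student reference in place of the normal one for the deposited score (6 and 4 degrees of freedom), 0 of the 5 and 0 of the 18 pass in both.

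The other 13 comprise lipid enzymes and a mixed group. Scd1 and Scd2, which make monounsaturated fatty acids, and Degs1, a desaturase of ceramide synthesis, had callosum changes of -0.48 ± 0.13, -0.38 ± 0.09 and -0.38 ± 0.09 in the authors' deposited table. In culture these 3 had -1.65 ± 0.14, -1.62 ± 0.13 and -1.71 ± 0.16 in the authors' deposited table. Serpinb1a, a protease inhibitor of mature oligodendrocytes, was nearly equal in both systems (-1.30 ± 0.18 and -1.33 ± 0.44 in the authors' deposited table). Vipr2, a receptor for vasoactive intestinal peptide, had -1.43 ± 0.38 and -2.53 ± 0.30 in the authors' deposited table. Rasl11a, a small GTPase, had -1.12 ± 0.32 and -1.76 ± 0.28 in the authors' deposited table. Cldn2, a claudin of choroid plexus, had -1.04 ± 0.32 and -2.30 ± 0.75 in the authors' deposited table. Rarres1, Ndrg2, Desi1, Nxt2, Tmem229a and Gm14325 complete the list. Over the 13, the median was -0.46 in callosum and -1.65 in culture, against -0.87 and -1.70 over the 5. The 5 were chosen by these same changes, so this contrast may only reflect the choice and was not tested.

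**Figure D4:**
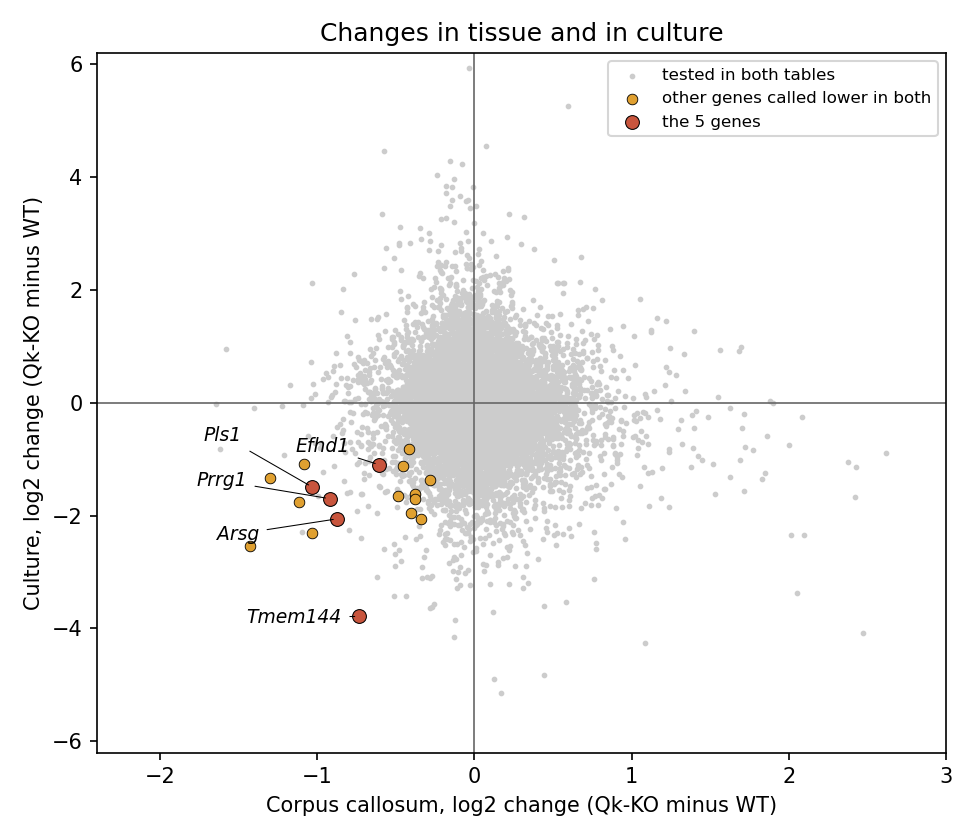
Log2 change in callosum (x axis) against log2 change in culture (y axis) for the 16601 genes tested in both tables (grey), with the 5 genes in red and the other 13 genes called lower in both in orange. Tmem144, at -0.73 and -3.79, sits below the rest of the 18.

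Genes with the most similar pair of changes were named by Euclidean distance over the 2 log2 changes, leaving out predicted models. Nearest to Arsg were Neat1, a nuclear long noncoding RNA, at a distance of 0.19, and Etnppl, an enzyme of ethanolamine metabolism, at 0.21. Nearest to Tmem144 were the mitochondrial carrier gene Ucp3 (0.42) and the ribonuclease gene Rnase1 (0.47), which are farther off than any other pair. Mfrp, a membrane protein related to frizzled receptors, was nearest to both Prrg1 (0.09) and Pls1 (0.16). Cml3 (0.15 from Prrg1), Echdc3 (0.23 from Pls1), Nat8 (0.08 from Efhd1) and the desmosome gene Pkp2 (0.08 from Efhd1) were the others. None of these 9 passed in callosum, where Etnppl stood at -0.80 ± 0.27 by the authors' deposited table, with an adjusted p of 0.11. All 9 passed in culture, as with Neat1 at -1.91 ± 0.54 (adjusted p = 0.0025) in the authors' deposited table. The likeness rests on 2 comparisons only.

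Sulfatases and other enzymes of heparan sulfate breakdown, the relatives of Arsg, were not called lower in callosum, where few genes of any kind were. Over all tested genes, 0.231% were called lower and 2.09% higher in callosum, and 15.2% and 13.3% in culture. These shares are the background for the counts in this and the later lists. A count of 0 lower in callosum is near that share. Of 13 genes on the sulfatase list, which also holds the sulfatase-modifying factors Sumf1 and Sumf2, 0 fell and 1 rose, Sulf2, an extracellular sulfatase (0.52 ± 0.13, adjusted p = 0.00675 in the authors' deposited table). At an unadjusted p under 0.05 the DESeq2 test gave 1 lower and 5 higher. The median of that list was 0.11, against -0.01 over all tested genes. For heparan sulfate breakdown, 1 of 8 genes rose and 0 fell (median 0.32), with 0 lower and 4 higher at an unadjusted p under 0.05 by DESeq2. The gene that rose was Gusb, the lysosomal beta-glucuronidase (0.94 ± 0.13, adjusted p = 7.84e-10 in the authors' deposited table). In culture 6 of 12 tested genes of the sulfatase list, Sumf1 among them, fell and 0 rose (6 and 0 at an unadjusted p under 0.05 by DESeq2), with a median of -0.54 against 0.01 over all tested genes. Arsk (-1.35 ± 0.17, adjusted p = 1.41e-13), Arsb (-1.06 ± 0.20, adjusted p = 1.87e-06) and Sumf1, which activates sulfatases but is not one (-0.55 ± 0.14, adjusted p = 5.97e-04), were among the 6 in the authors' deposited table. Of 7 genes of heparan sulfate breakdown 3 fell, among them Idua (-0.55 ± 0.17, adjusted p = 0.00684) and Sgsh (-0.54 ± 0.19, adjusted p = 0.0204) in the authors' deposited table. With scaling by library size, 2 genes rose in callosum in each of these lists. The abundant Ids did not pass in either system (0.11 ± 0.16 and 0.14 ± 0.16 in the authors' deposited table). The adjusted p values here and below are from DESeq2 in the deposited tables, over all tested genes.

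The relatives of Prrg1 split. Of 9 tested Gla proteins and genes of the vitamin K cycle, 0 fell and 1 rose in callosum (median -0.08), by DESeq2 with or without adjustment of p. The riser was Pros1, the secreted ligand protein S (0.82 ± 0.15, adjusted p = 3.35e-06 in the authors' deposited table). In culture 3 of 9 fell and 1 rose (median -0.35). Ggcx, the vitamin K-dependent carboxylase that modifies Gla domains, fell (-0.67 ± 0.16, adjusted p = 2.74e-04), as did Pros1 (-0.89 ± 0.26, adjusted p = 0.00337) in the authors' deposited table. Among the closest paralogs, Prrg2 fell in culture (-0.67 ± 0.25, adjusted p = 0.0317) and Prrg3 rose (0.84 ± 0.26, adjusted p = 0.00625) in the authors' deposited table. Prrg4, named for its family, passed in neither (-0.76 ± 0.44 and -0.90 ± 0.52 in the authors' deposited table).

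Efhd2, the paralog of Efhd1, and Pls3, one of the plastin paralogs of Pls1, did not pass, while the plastin gene Lcp1 rose in callosum. Efhd2 had 0.10 ± 0.21 in callosum and 0.04 ± 0.25 in culture, and Pls3 had -0.15 ± 0.10 and -0.24 ± 0.15 in the authors' deposited table. Of 12 tested genes of mitochondrial calcium handling, 0 passed in callosum by DESeq2, and 0 were lower and 1 higher at an unadjusted p under 0.05 (median -0.03; Vdac1, the most abundant, -0.20 ± 0.11 in the authors' deposited table). In culture 3 fell and 1 rose (median -0.18). Slc8b1, the mitochondrial sodium-calcium exchanger, fell by 1.41 ± 0.22, Mcur1 by 0.98 ± 0.19 and Letm1 by 0.39 ± 0.15, and the uniporter regulator Micu3 rose by 1.07 ± 0.22 on the log2 scale in the authors' deposited table. Of 14 tested actin-bundling genes, 0 fell and 1 rose in callosum (median 0.14), by DESeq2 with or without adjustment of p. This was Lcp1, the plastin of leukocytes (1.28 ± 0.14, adjusted p = 1.25e-17 in the authors' deposited table). In culture 2 of 11 fell and 3 rose (median 0.09). Eps8, which caps and bundles actin, fell by 1.24 ± 0.17, while Marcks (0.67 ± 0.16), Actn3 (1.47 ± 0.40) and Actn1 (0.69 ± 0.19) rose in the authors' deposited table. With scaling by library size, 1 actin-bundling gene fell.

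Genes of the Slc35 family, listed here as nucleotide sugar transporters, were taken for Tmem144. Transport of sugars is not established for all of them, so the counts are for the family. Of 17 tested, 0 passed in callosum by DESeq2, adjusted or not (median 0.01), and 5 fell and 1 rose in culture (median -0.15). Slc35a5 fell by 1.07 ± 0.19, Slc35f6 by 0.80 ± 0.16 and Slc35d1 by 0.68 ± 0.16, and Slc35a1, the CMP-sialic acid transporter, rose by 0.64 ± 0.16 on the log2 scale in the authors' deposited table. Scaling by library size raised the risers from 1 to 3.

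**Figure D5:**
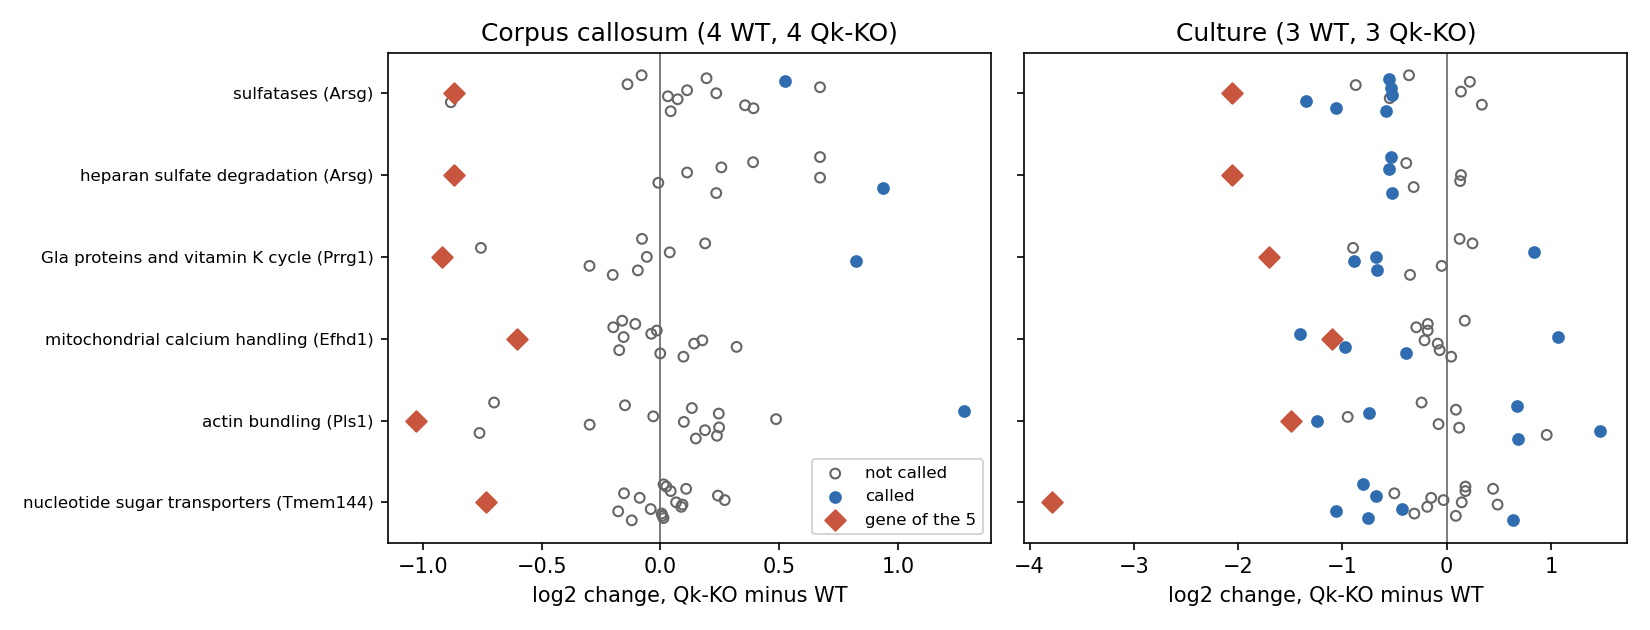
Log2 changes (x axis, labelled Qk-KO minus WT) of the tested genes of 6 families or pathways, with called genes filled in blue, genes that were not called as open circles and the related gene of the 5 as a red diamond. In callosum 4 genes of the lists were called, all higher; in culture 20 were called lower and 6 higher.

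Of the 11 protein-coding genes that flank or overlap the 5 on the chromosome, 9 were tested in callosum, where 0 fell and 1 rose, and 7 in culture, where 2 fell and 1 rose. The shares of all tested genes were 0.231% lower and 2.09% higher in callosum, and 15.2% and 13.3% in culture. Both neighbours that fell in culture adjoin Arsg. Wipi1, an autophagy gene on the opposite strand whose span begins at the base after the end of Arsg, rose in callosum (0.38 ± 0.12, adjusted p = 0.0386) and fell in culture (-1.72 ± 0.13, adjusted p = 8.58e-40) in the authors' deposited table. Slc16a6, a carrier of the monocarboxylate transporter family that overlaps Arsg by 225 bases on the opposite strand, had 0.14 ± 0.14 in callosum and fell in culture (-0.63 ± 0.15, adjusted p = 2.74e-04) in the authors' deposited table. The strand setting of the counting is not given in the sources used here, so reads in that overlap cannot be told apart. Eif4e2 (-0.02 ± 0.08) and Gigyf2 (-0.06 ± 0.07) flank Efhd1 and did not pass in callosum in the authors' deposited table. Trpc1, beside Pls1, had -0.16 ± 0.13 in callosum and rose in culture (0.44 ± 0.14, adjusted p = 0.0103) in the authors' deposited table. Efhd1os, antisense to Efhd1 over 694 bases, had mean normalized counts of 0.284 and 0.34 in the authors' deposited table.

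Markers of the cell types in the samples moved as follows. For comparison, calls over all tested genes were 0.231% lower and 2.09% higher in callosum, and 15.2% and 13.3% in culture. In bulk RNA, fewer cells of a type and less RNA per cell cannot be told apart. In callosum, 13 of 38 mature oligodendrocyte markers rose and 4 fell, with a median of 0.33 and a summed normalized level from 214281 in WT to 233826 in Qk-KO. The 4 that fell were Serpinb1a (-1.30 ± 0.18), Anln (-1.22 ± 0.21), Ndrg1 (-0.93 ± 0.16) and Hapln2 (-0.86 ± 0.17) in the authors' deposited table, named after their values were seen. In all, 11 of the 38 lay below WT. Of 16 microglia markers 13 rose (summed level 9302 to 21127), and 2 of 14 astrocyte markers rose (108703 to 129910). The astrocyte median was 0.04 with 6 of 14 below WT, and Gfap alone went from 4663 to 19387. Of the neuron markers, 0 of 14 passed (169455 to 157326). Choroid plexus and ependyma markers had a median of -0.81 with 1 of 7 falling, Cldn2, and their summed level went from 40638 to 23332. Endothelial and mural markers (0 of 10 passed, 8073 to 7417) and precursor markers (0 of 12, 17410 to 19326) gave no calls. At an unadjusted p under 0.05 by DESeq2, choroid plexus and ependyma markers gave 5 of 7 lower, the same direction as the 5 genes. Neuron markers gave 1 lower, endothelial and mural markers 2 lower and precursor markers 3 higher at that threshold. No marker was at 0 in callosum.

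In culture, 12 of 14 astrocyte markers fell and the summed level of that list went from 652600 to 185308, with a median of -2.10. Mature oligodendrocyte markers fell in 10 of 37 cases and rose in 3 (median -0.31, 180256 to 132460), and precursor markers fell in 3 of 12 and rose in 2 (161460 to 144488). Neuron markers rose in 9 of 13 cases (median 1.04, 34023 to 75818), and Map2 alone went from 30697 to 63270. Of the other lists, 5 of 16 microglia markers were at 0, among them C1qa and Trem2, as were Cldn5 and Cdh5 of the 10 endothelial and mural markers, and 2 of the 3 tested microglia markers fell (1053 to 630). Endothelial and mural markers fell in 2 of 5 cases (524 to 363), and choroid plexus and ependyma markers in 2 of 5 (3975 to 1923) with Tmem212 at 0. The part of these shifts in the values of the 5 genes was not tested.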

How the data were processed

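RNA of 8 callosum and 6 culture samples was sequenced, and 1 table per system was used. Per the submitters' processing notes, the authors used FastQC, TopHat2 2.0.14, featureCounts and DESeq2 with build mm10; the sources used here give no settings, annotation or strand. The library columns hold deposited log2 values, which were checked to be the log2 of a fitted mean plus 1: within a genotype libraries differ by 1 constant within 1e-09. Per the file headers, the other columns hold a mean normalized signal, a log2 fold change (turned here to Qk-KO minus WT) with its SE, a score, and a p-value with its Benjamini-Hochberg adjustment, all deposited by the authors.

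The members and gene lists were chosen with earlier results of these data known. Calls rest on the authors' DESeq2 Wald tests, as deposited, at an adjusted p under 0.05; no count test and no omission of single libraries could be run on fitted means. The labels do not say that libraries are separate animals or cultures. The p-values therefore judge a difference against the variation between these libraries, which may not be that between animals or cultures. Size factors and normalized levels were recovered from the fitted means (Python 3.11.15, pandas 2.3.3, SciPy 1.17.1), and levels per kilobase use the union of exons in GENCODE M21. The adjustment and rescaling steps were tested on simulated data. The difference between systems used a z test on both changes and SEs, adjusted over 16601 genes. Genes were named by a rule: the 5 genes, the 2 nearest to each by distance, genes called lower in both, up to 4 called genes per family list and the most abundant one that did not pass, flanking or overlapping genes, Qk and Xist; Efhd2, Pls3 and Prrg4 were added as paralogs after their values were seen. Mcub of the calcium list had no row under that symbol, and some genes that the rule names are not reported here.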

Additional observations from a re-analysis of the deposited data

Results flagged for a closer look

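Pros1 and Wipi1 were called in opposite directions in the 2 systems, and their changes differed between tissue and culture. The z test of this difference was reported only for list or neighbouring genes called in both systems. With opposite calls its outcome was largely fixed in advance, so its p-values add no support to the calls. Opposite calls were not particular to them: 84 genes were called higher in callosum and lower in culture, among them the astrocyte genes Gfap (2.06 ± 0.19 and -3.37 ± 0.29) and Aqp4 (0.69 ± 0.18 and -1.22 ± 0.22) in the authors' deposited table. Pros1 was named in the vitamin K list and Wipi1 as a neighbour of Arsg. For Pros1 the culture change minus the callosum change was -1.71 ± 0.30 log2 units (z test, adjusted p = 2.53e-07 over 16601 genes), from 0.82 in callosum and -0.89 in culture in the authors' deposited table. For Wipi1, next to Arsg, it was -2.11 ± 0.17 (adjusted p = 4.22e-32), from 0.38 and -1.72 in the authors' deposited table. Arsg lay below WT in both systems, so it and its neighbour differ in direction in callosum. No sample could be examined for outlying values, since the library columns carry no replicate spread.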

How the results depend on the processing

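No paired analysis was possible because the library columns hold fitted means with genotype as their only term. The cultures are paired by passage in the labels, which the deposited statistics leave unused. No replicate could be left out either, since fitted means carry no spread between replicates. With a Student reference, 0 genes were called lower in callosum, 8 higher, and 0 in either direction in culture or lower in both, and 0 of the list genes in any direction or system. At an adjusted p under 0.01, 24 genes were called lower in callosum, 1553 higher in culture and 10 lower in both tables (46, 2336 and 18 at 0.05). At 0.1, 73 were called lower in callosum. Scaling by library size changed the culture split from 2667 lower and 2336 higher to 2296 and 3054, and shifted all log2 changes by 0.02 in callosum and 0.08 in culture. Centring on the median of the mature oligodendrocyte list gave callosum changes of -1.20 for Arsg, -1.06 for Tmem144, -1.25 for Prrg1, -0.93 for Efhd1 and -1.36 for Pls1. In culture it gave -1.75 for Arsg, -1.39 for Prrg1 and -0.79 for Efhd1, while Tmem144 and Pls1 moved by less than their SE. Each of the 3 scalings run shifts all changes of a system by 1 constant, smaller than the change of any of the 5 genes. Their direction was therefore fixed in advance and adds no support. Of the remaining values of these results, 64 moved by less than 1.5 times for a count or by less than the SE for a change.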
